A study of Arabidopsis thaliana with 12 samples.

Results

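The 10 genes described here are *IRT3* and *ZIP1*, *ZIP2*, *ZIP3*, *ZIP4*, *ZIP5*, *ZIP6*, *ZIP9*, *ZIP10* and *ZIP11* of *Arabidopsis thaliana*, chosen by name from the ZIP family of metal transporters, and they are 10 of the 32678 genes in the table of read counts. *ZIP7*, *ZIP8* and *ZIP12* are not among them and are given below with the other genes of the family. Their transcripts were measured in roots of wild type (ecotype Columbia, Col-0) and of *clf* seedlings. All plants grew for 12 days on B5 medium and then for 3 days on medium with iron (+Fe, FeNa-EDTA) or on medium with no iron and with the iron chelator ferrozine (-Fe). The sample titles and the study's methods carry different numbers for iron, so no concentration is given. Each of the 4 groups had 3 libraries, described as biological replicates, with 18658428 to 28281420 counts per library. The mutant was a single T-DNA insertion line, *clf-29*, of *CURLY LEAF*, the main methyltransferase of Polycomb Repressive Complex 2 for trimethylation of histone 3 at lysine 27, so differences between genotypes rest on 1 line. *CLF* transcripts ranged from 10.3 to 15.8 CPM (read counts scaled to the size of the library, with TMM factors) in the 6 *clf* libraries and from 43.6 to 55.1 CPM in the 6 wild type libraries.

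ZIP proteins (ZRT, IRT-like proteins) move divalent metal cations such as zinc, iron and manganese into the cytosol, across the plasma membrane or out of organelles such as the vacuole. Several members of the family in Arabidopsis are known to be induced when zinc is short, by the transcription factors bZIP19 and bZIP23, which bind a palindromic zinc deficiency response element. The root iron transporter IRT1, which is induced when iron is short, belongs to the same family and also carries zinc.

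Of the 10 genes, 5 lie on chromosome 1 (*IRT3*, *ZIP4*, *ZIP5*, *ZIP10* and *ZIP11*), 2 on chromosome 2 (*ZIP3* and *ZIP6*) and 1 each on chromosome 3 (*ZIP1*), chromosome 4 (*ZIP9*) and chromosome 5 (*ZIP2*). The core of the zinc deficiency response element, TGTCGACA, reads the same on both strands. It was searched in the 1000 genomic bases before the start codon of each gene in the RefSeq annotation of TAIR10.1, and was found before 4 of the 10 genes. The windows of *IRT3* and *ZIP4* held 2 copies each, those of *ZIP5* and *ZIP10* held 1 each, and those of *ZIP1*, *ZIP2*, *ZIP3*, *ZIP6*, *ZIP9* and *ZIP11* held none. Among the same windows of 27444 protein-coding genes, 254 (0.926%) held the core and 4 (0.0146%) held more than 1 copy, namely *IRT3*, *ZIP4*, *WRKY67* and *AT5G54050*. A match is a description of letters and not a shown binding site, and a window without a match says only that these 8 letters are not in it.

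Genes of this family with and without a match are described side by side in what follows. The 6 matches are shown with their surroundings. Each is printed 5′ to 3′ on the strand of its gene, which is the minus strand for all 4 genes, with the core in capitals. Those that lie between the annotated start of the gene and its start codon are cut to 30 bases.
IRT3, upstream of the gene, chr1:22447300-22447363: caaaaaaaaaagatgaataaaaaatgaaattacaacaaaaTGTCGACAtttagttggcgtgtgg
IRT3, before the start codon, chr1:22447207-22447236: cttcctcacgaTGTCGACAttacttgtatc
ZIP4, upstream of the gene, chr1:3667140-3667218: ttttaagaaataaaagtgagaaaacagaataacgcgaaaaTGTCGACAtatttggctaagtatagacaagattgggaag
ZIP4, before the start codon, chr1:3667032-3667061: agtccatagaaTGTCGACActctttcactc
ZIP5, upstream of the gene, chr1:1548633-1548709: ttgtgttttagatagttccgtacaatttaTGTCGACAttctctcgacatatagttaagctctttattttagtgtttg
ZIP10, upstream of the gene, chr1:11177431-11177518: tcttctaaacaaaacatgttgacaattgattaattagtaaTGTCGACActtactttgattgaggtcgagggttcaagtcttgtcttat

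The upstream core of *IRT3* lay 24 bases before the annotated start of the gene and that of *ZIP4* lay 39 bases before it, whereas the core of *ZIP5* lay 831 bases before it. For *ZIP10*, whose annotation begins at the start codon, the distance was 116 bases. None of the 6 matches lay inside another annotated gene.

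Iron deficiency lowered 4 of the 9 genes that could be tested and raised none in wild type roots, and the same 4 genes, *IRT3*, *ZIP1*, *ZIP4* and *ZIP5*, fell in *clf* roots. *ZIP9* ran the other way, with every -Fe library above every +Fe library of the same genotype. *ZIP3* was lower under iron deficiency by a large but variable margin, and *ZIP2*, *ZIP6* and *ZIP11* stayed within the spread of their libraries. A gene was called when its p from the quasi-likelihood test of edgeR, adjusted by the Benjamini-Hochberg method over 20168 genes with enough counts, was under 0.05, and log2 fold changes are -Fe over +Fe unless stated. Across all genes tested, 2.14% were called lower and 2.28% higher in wild type, against 0.491% lower and 1.27% higher in *clf*. The 9 genes had a median log2 fold change of -1.30 in wild type roots and -1.13 in those of *clf*, beside medians over all genes of -0.0026 and -0.011.

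The level of a transcript in a bulk root sample depends both on how many cells of a type are present and on the RNA per cell, and these cannot be told apart here. Within each group 1 library correlated least with the others, and is said to stand apart. This was replicate 1 in both wild type groups and in -Fe *clf* roots, and replicate 2 in +Fe *clf* roots. The summed level of the 3 root hair markers *COBL9*, *EXPA7* and *EXPA18* was 13.7 CPM in both of the wild type libraries, 50.3 CPM in the -Fe and 57.7 CPM in the +Fe *clf* library, against 77.1 to 213 CPM in the other 8. The summed level of 8 green shoot markers ranged from 281 to 858 CPM in +Fe libraries and from 50.5 to 302 CPM in -Fe libraries. Median log2 fold changes of these markers were -1.36 (wild type) and -1.89 (*clf*). Among them, *RBCS2B* was at 0 CPM in replicate 3 of -Fe wild type and in replicate 1 of both *clf* groups. Of the 8, edgeR called 2 lower in wild type and none in *clf*, beside 2.14% and 0.491% of all genes. DESeq2 called 3 lower in each, beside 850 genes of 25399 in wild type and 365 in *clf*. The 3 stele markers summed to 475 to 625 CPM in +Fe and 727 to 1065 CPM in -Fe *clf* roots, and to 283 to 642 and 639 to 760 CPM in wild type. Most of these sums was *PHO1*, at 361 to 484 CPM in +Fe and 609 to 962 CPM in -Fe *clf* roots. The other stele markers overlapped between iron conditions in *clf*. There *SHR* was at 36.3 to 47.2 CPM in +Fe and 38.0 to 44.0 CPM in -Fe, and *AHK4* at 67.0 to 105 and 59.1 to 80.1 CPM. In the wild type libraries that stand apart the 4 endodermis markers had the lowest sums of all 12 libraries (145 and 142 CPM) and the 3 meristem markers the highest (35.7 and 34.9 CPM, against 16.1 to 22.8 CPM in the others). No marker of these lists was at 0 throughout a group. The part of these differences in the results was not tested.

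*IRT3* (AT1G60960, chr1:22445299-22447299) encodes a plasma membrane transporter of zinc and iron. In wild type it stood at 20.8, 31.3 and 30.7 CPM with iron and at 2.47, 3.34 and 4.37 CPM without it. In *clf* the values were 44.6, 41.9 and 38.7 CPM with iron and 3.30, 4.79 and 9.02 CPM without it. All 6 -Fe libraries were thus below all 6 +Fe libraries. The fall was 8.14-fold in wild type roots (log2 fold change -3.03, SE 0.33, adjusted p = 0.000986) and 7.32-fold in those of *clf* (log2 fold change -2.87, SE 0.32, adjusted p = 0.00162). Between the libraries that stand apart the log2 ratio came to -3.03 in wild type and -3.63 in *clf*, beside -2.99 and -2.64 between the means of the others.

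*ZIP5* (AT1G05300, chr1:1544927-1547849), another gene of the zinc deficiency response, showed the steepest fall of the 9 genes in both genotypes. Its level in wild type went from 8.78, 13.0 and 12.3 CPM with iron to 0.729, 0.271 and 0.737 CPM without it, the latter resting on 18, 6 and 16 reads. In *clf* it went from 14.9, 36.3 and 13.8 CPM to 3.10, 0.921 and 2.40 CPM. The highest of these values, in *clf* +Fe replicate 2, was in a library that stands apart, and the iron conditions did not overlap in either genotype. The fall was 19.4-fold in wild type (log2 fold change -4.28, SE 0.54, adjusted p = 0.00266) and 10.1-fold in *clf* (log2 fold change -3.33, SE 0.48, adjusted p = 0.00848).

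*ZIP4* (AT1G10970, chr1:3665087-3667139), the other gene with 2 copies of the core before its start codon, encodes a transporter that is a classical marker of zinc deficiency. It was measured at 7.17, 8.71 and 7.58 CPM in +Fe and 3.52, 2.71 and 2.26 CPM in -Fe wild type roots. In *clf* roots its values were 9.07, 6.80 and 7.85 CPM in +Fe and 2.34, 2.21 and 2.95 CPM in -Fe. The iron conditions did not overlap in either genotype and the replicates lay close together, with falls of 2.76-fold in wild type (log2 fold change -1.46, SE 0.22, adjusted p = 0.0046) and 3.16-fold in *clf* (log2 fold change -1.66, SE 0.22, adjusted p = 0.00331).

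*ZIP1* (AT3G12750, chr3:4051651-4053201) encodes a zinc transporter found at the vacuolar membrane. Its level in wild type was 7.38, 6.88 and 6.91 CPM with iron and 2.47, 3.25 and 2.90 CPM without it. In *clf* it was 7.08, 9.76 and 8.46 CPM with iron and 4.55, 2.95 and 4.04 CPM without it. This was the smallest of the 4 falls in each genotype, at 2.46-fold (log2 fold change -1.30, SE 0.21, adjusted p = 0.00729) and 2.19-fold (log2 fold change -1.13, SE 0.21, adjusted p = 0.0225). The call in *clf* was lost when replicate 2 or 3 of either *clf* group was left out, with adjusted p from 0.0544 to 0.103, and in the fits of the 6 *clf* libraries alone, without the replicate block (adjusted p = 0.0588) and with it (adjusted p = 0.254). *ZIP1* overlaps *ALIS1*, on the opposite strand, over 125 bases, and since the strand setting of the counting is not given, its level is uncertain to that extent.

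**Figure D1:**
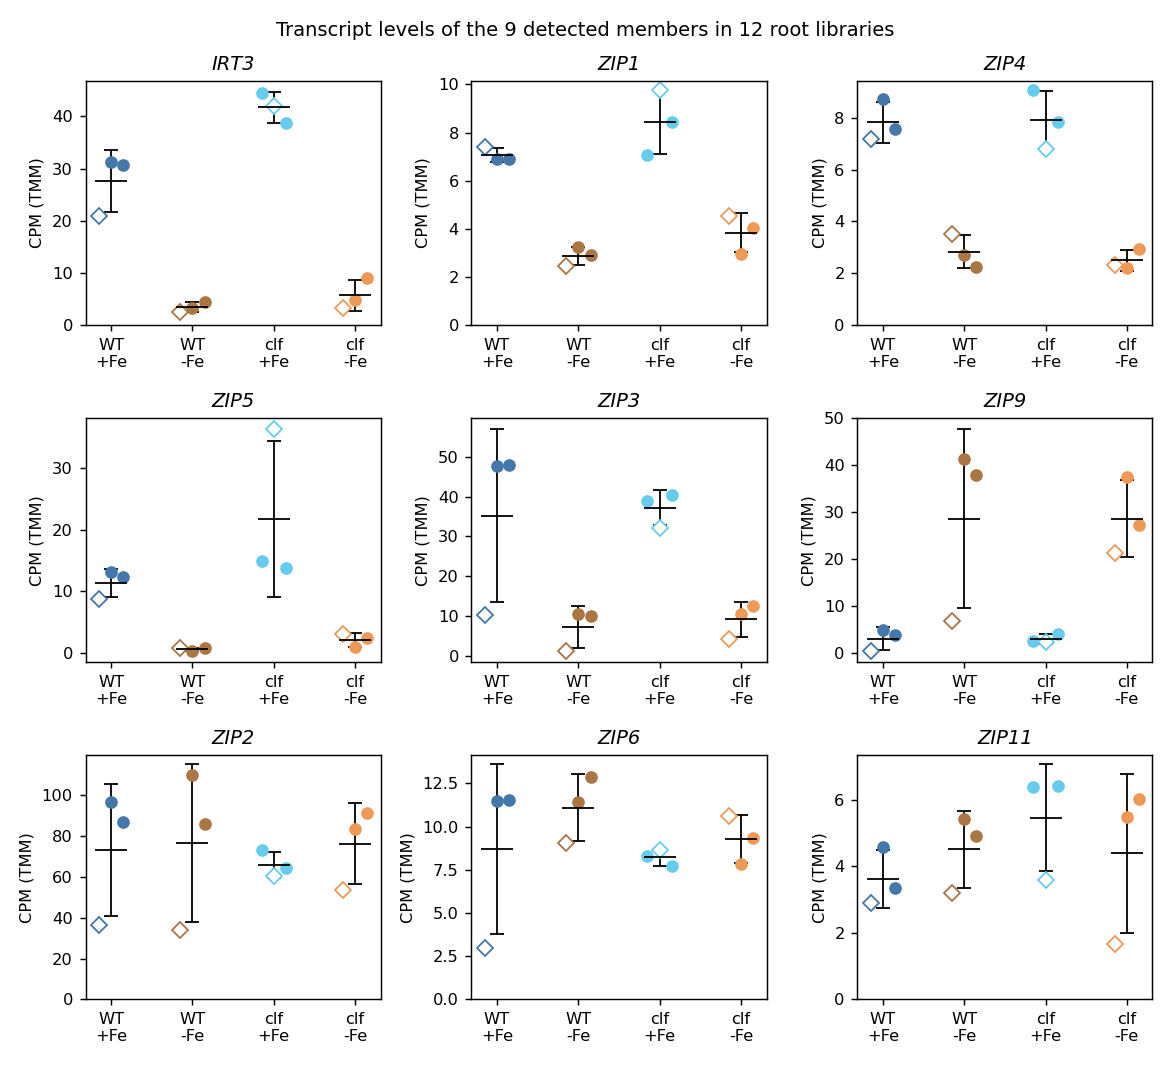
Level of each of the 9 detected genes (y axis, TMM-normalized CPM, linear scale) in the 4 groups (x axis). Points are libraries, open diamonds are the 4 libraries that stand apart, and black bars are the mean ± SD of 3 libraries. *IRT3*, *ZIP1*, *ZIP4* and *ZIP5* are lower in every -Fe library than in any +Fe library of the same genotype, and *ZIP9* is higher in every -Fe library. Both open diamonds of wild type are the lowest points of their own groups for *IRT3*, *ZIP2*, *ZIP3*, *ZIP6*, *ZIP9* and *ZIP11*.

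*ZIP3* (AT2G32270, chr2:13704068-13706928), which encodes a root zinc transporter, varied widely between the wild type libraries. In wild type it was at 10.2, 47.7 and 47.9 CPM with iron and at 1.09, 10.5 and 10.04 CPM without it, so that replicate 1 was far below the others in both conditions and the groups overlapped. In *clf* it was at 39.0, 32.1 and 40.4 CPM with iron and at 4.23, 10.5 and 12.5 CPM without it, with no overlap. The log2 fold change was -2.29 in wild type (SE 0.73, adjusted p = 0.128) and -2.03 in *clf* (SE 0.73, adjusted p = 0.255), neither of which passed the threshold. Same-numbered wild type libraries deviated together, and a block for the replicate number, in a fit of the 6 wild type libraries alone, gave a log2 fold change of -2.46 (adjusted p = 0.00358), where 5.83% of all genes were called lower. Averaged over both genotypes it was -2.16 (SE 0.51, adjusted p = 0.0257). That call was lost when any of 5 libraries was left out, namely replicates 2 and 3 of +Fe wild type, replicate 3 of +Fe *clf* and replicates 1 and 2 of -Fe *clf*, where the adjusted p was 0.0521 to 0.0611.

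*ZIP9* (AT4G33020, chr4:15932420-15934762) is also known as a gene induced by zinc deficiency, yet its transcripts were more abundant when iron was withheld. Wild type values were 0.295 (7 reads), 4.85 and 3.79 CPM in +Fe and 6.64, 41.2 and 37.8 CPM in -Fe roots. Those of *clf* were 2.44, 2.19 and 4.02 CPM in +Fe and 21.3, 37.4 and 27.1 CPM in -Fe roots. Wild type replicate 1 was the lowest library of its group in both conditions, so that its -Fe value was only a little above the highest +Fe value, 4.85 CPM. The difference was 9.67-fold in wild type (log2 fold change 3.27, SE 0.77, adjusted p = 0.0518) and 9.92-fold in *clf* (log2 fold change 3.31, SE 0.77, adjusted p = 0.0818), and missed the threshold in each. Between the genotypes these responses differed by 0.04 on the log2 scale, with a 95% interval of -2.38 to 2.45. The replicate block brought it past the threshold in wild type, at 3.30 (adjusted p = 0.0252) over all 12 libraries, where 2.41% of all genes were called higher, and at 3.41 (adjusted p = 0.00193) over the 6 wild type libraries, where 6.45% were. Averaged over genotypes *ZIP9* rose, by 3.29 on the log2 scale (SE 0.55, adjusted p = 0.00529).

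**Figure D2:**
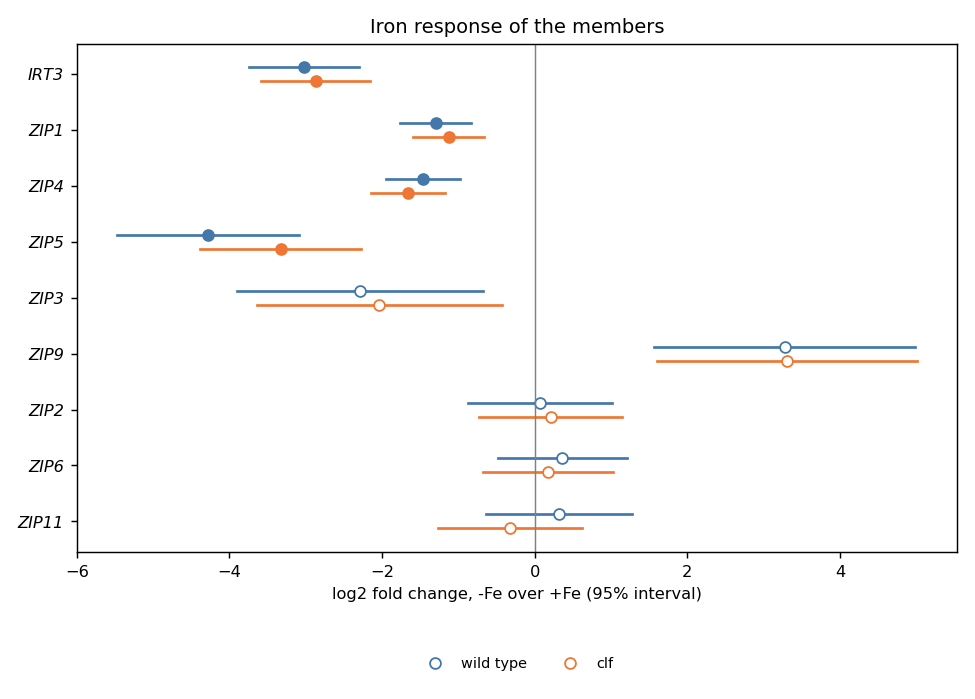
Iron response of the 9 genes in wild type (blue) and *clf* (orange), as the log2 fold change of -Fe over +Fe (x axis) with its 95% interval. Filled points passed the threshold of 0.05 on the adjusted p and open points did not. The 4 genes with filled points lie left of 0 in both genotypes, *ZIP9* lies at 3.27 and 3.31, and the intervals of *ZIP2*, *ZIP6* and *ZIP11* include 0.

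Averaged over both genotypes, 5 of the 9 genes were called lower and 1 higher, while 5.6% and 5.81% of all genes were. The 5 were *IRT3* (log2 fold change -2.95), *ZIP5* (-3.80), *ZIP3* (-2.16), *ZIP4* (-1.56) and *ZIP1* (-1.21). A fit without the 4 libraries that stand apart was added once the data had been seen, and by its construction it has less spread. In it the same 5 genes were called lower and *ZIP9* higher in each genotype separately, where 13.3% of all genes were called lower and 13.9% higher in wild type, and 5.64% and 8.92% in *clf*. Groups that did not overlap gave the same picture, with 4 genes lower and 1 higher in wild type, beside 11.6% and 10.5% of all genes, and 5 lower and 1 higher in *clf*, beside 10.9% and 11.6%.

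*ZIP2* (AT5G59520, chr5:23991213-23992908), which encodes a plasma membrane transporter of the root, had no iron response beyond its spread. Its values were 36.2, 96.5 and 86.9 CPM in +Fe and 34.1, 110 and 86.0 CPM in -Fe wild type roots. In *clf* roots they were 73.1, 60.6 and 64.2 CPM in +Fe and 53.7, 83.6 and 91.4 CPM in -Fe. Here too wild type replicate 1 was the lowest library of its group in both conditions, and the iron groups overlapped in both genotypes. The log2 fold change was 0.07 in wild type (95% interval -0.87 to 1.01) and 0.21 in *clf* (-0.73 to 1.15).

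*ZIP6* (AT2G30080, chr2:12838620-12840252) was at 3.00, 11.5 and 11.6 CPM in +Fe and at 9.03, 11.4 and 12.8 CPM in -Fe wild type roots, and between 7.71 and 10.6 CPM in the 6 *clf* libraries. Apart from wild type +Fe replicate 1, its 11 values thus lay between 7.71 and 12.8 CPM, and the log2 fold changes were 0.36 in wild type (95% interval -0.49 to 1.20) and 0.17 in *clf* (-0.67 to 1.02). *ZIP6* shares 36 bases with *KT1* on the opposite strand, with the same uncertainty as for *ZIP1*. *ZIP11* (AT1G55910, chr1:20905914-20907414), which complements yeast lacking zinc uptake, was at 2.91, 4.59 and 3.36 CPM in +Fe and at 3.20, 5.41 and 4.93 CPM in -Fe wild type roots. In *clf* its values were 6.38, 3.60 and 6.40 CPM in +Fe and 1.65, 5.48 and 6.03 CPM in -Fe. The low value of each *clf* group came from the library that stands apart, and the log2 fold changes were 0.32 in wild type (95% interval -0.63 to 1.27) and -0.32 in *clf* (-1.26 to 0.62).

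*ZIP10* (AT1G31260, chr1:11175559-11177362) had no read in any of the 12 libraries. A count of 0 allows up to 3 counts, which is 0.106 to 0.156 CPM per library, so the gene was not detectable at this depth. Its upstream window holds a core of the same letters as those of *IRT3*, *ZIP4* and *ZIP5*, and whether the core acts in these roots was not tested.

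Levels were compared between genes on the authors' FPKM values, which divide by gene length. *ZIP2* was the most abundant member in every group, with a mean of 58.7 ± 24.4 FPKM (SD, n = 3) in +Fe and 57.8 ± 26.6 FPKM (SD, n = 3) in -Fe wild type roots, and of 52.0 ± 3.96 and 55.2 ± 13.7 FPKM (SD, n = 3) in the corresponding *clf* roots. In +Fe roots *ZIP3* (27.4 ± 16.4 FPKM in wild type and 28.6 ± 2.93 in *clf*, SD, n = 3) and *IRT3* (18.8 ± 3.30 and 27.8 ± 1.81 FPKM, SD, n = 3) followed, and the ranges of these 2 overlapped in both genotypes. In -Fe roots *ZIP9* moved to the second place from the last, where its range in +Fe roots overlapped that of *ZIP11*. It stood at 26.6 ± 17.1 FPKM in -Fe wild type and 25.8 ± 6.36 FPKM in -Fe *clf* (SD, n = 3). *ZIP5* then had the lowest mean, at 0.364 ± 0.179 and 1.27 ± 0.688 FPKM (SD, n = 3). Its range overlapped that of *ZIP4*, the next lowest by mean, in -Fe *clf* roots but not in -Fe wild type roots. *ZIP9* did not overlap its neighbours *ZIP2* and *ZIP6* in -Fe *clf* roots, but did in wild type.

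As a share of the summed FPKM of the members, *ZIP9* made up 1.83 ± 1.25% in +Fe and 21.8 ± 8.09% in -Fe wild type roots (SD, n = 3), and 1.92 ± 0.713% and 24.0 ± 4.20% in *clf* (SD, n = 3). *IRT3* went from 14.7 ± 4.06% to 2.23 ± 0.876% in wild type and from 18.6 ± 0.730% to 3.13 ± 1.14% in *clf* (SD, n = 3). *ZIP3* went from 18.3 ± 6.45% to 4.13 ± 2.19% and from 19.2 ± 2.45% to 5.67 ± 1.75% (SD, n = 3). The sum itself was 138 ± 52.5 FPKM in +Fe and 110 ± 48.4 FPKM in -Fe wild type, and 149 ± 4.34 and 108 ± 22.2 FPKM in *clf* (SD, n = 3). In wild type it went from 77.4 to 55.5 FPKM in replicate 1, from 174 to 147 in replicate 2 and from 161 to 129 in replicate 3, so it was lower without iron in every same-numbered pair although the groups overlapped. The *clf* sums were 144 to 152 FPKM with iron and 83.1 to 126 FPKM without it, with no overlap.

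**Figure D3:**
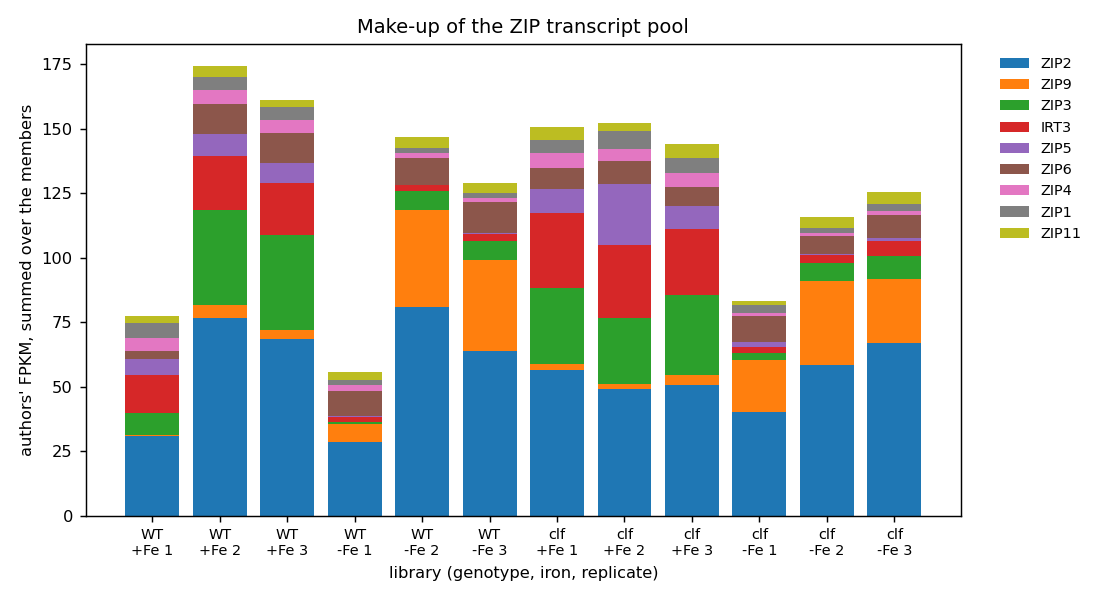
Summed FPKM of the 9 detected genes in each of the 12 libraries (y axis, authors' FPKM, linear scale from 0), with 1 colour for each gene. *ZIP2* is the largest part of every bar, *ZIP9* is a thin band in +Fe and a wide one in -Fe libraries, and wild type replicate 1 has the shortest bar of its group in both conditions, at 77.4 and 55.5 FPKM.

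Between genotypes, no member passed the threshold under iron sufficiency, under iron deficiency or averaged over both, where 0.0694%, 0.134% and 0.431% of all genes did. At an unadjusted p under 0.05, edgeR's test held none under iron sufficiency, 2 under iron deficiency (*IRT3* and *ZIP5*) and 3 in the average (*IRT3*, *ZIP1* and *ZIP5*), and all of these were higher in *clf*. In that direction 1.94%, 4.58% and 5.38% of all genes had such a p. DESeq2 called *ZIP5* higher in *clf* under iron deficiency, with 0.618% of all genes, and in the average, with 1.19%, and no member under iron sufficiency. *ZIP5* and *IRT3* were also the members whose +Fe groups did not overlap, with every *clf* library above every wild type library, which held in that direction for 4.48% of all genes. Under iron deficiency only *ZIP5* of the 9 genes had this pattern, beside 7.65% of all genes.

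The values of *ZIP5* in -Fe roots were 0.271 to 0.737 CPM in wild type and 0.921 to 3.10 CPM in *clf*. Its level in *clf* relative to wild type, as a log2 fold change, was 1.88 under iron deficiency (95% interval 0.65 to 3.11, adjusted p = 0.365), 0.93 under iron sufficiency (-0.09 to 1.94, adjusted p = 1) and 1.40 in the average (0.61 to 2.20, adjusted p = 0.174). Without the 4 libraries that stand apart the average was 0.95 (adjusted p = 0.0653). *IRT3* was higher in *clf* by 0.60 on the log2 scale under iron sufficiency (95% interval -0.10 to 1.29, adjusted p = 1), by 0.75 under iron deficiency (0.01 to 1.48, adjusted p = 0.64) and by 0.67 in the average (0.17 to 1.18, adjusted p = 0.344). Without the 4 libraries that stand apart the last was 0.63 (adjusted p = 0.0455), and *ZIP6*, lower in *clf*, was called as well, where 4.31% of all genes were called higher and 3.35% lower. For *ZIP1* the average was 0.34 (95% interval 0.01 to 0.67, adjusted p = 0.512).

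The iron responses of the 2 genotypes were compared directly as the log2 fold change in *clf* minus that in wild type. No member and no gene of all 20168 passed (0.0%), none of the 9 had an unadjusted p under 0.05, which 1.59% of all genes had, and DESeq2 called none of them. The largest positive difference was that of *ZIP5*, 0.95 (95% interval -0.65 to 2.55, adjusted p = 1), and the largest negative that of *ZIP11*, -0.64 (-1.98 to 0.70, adjusted p = 1). The widest intervals were those of *ZIP9*, given above, and of *ZIP3* (0.26, 95% interval -2.01 to 2.53), and only those of *ZIP1* and *ZIP4* stayed within 1 on the log2 scale. On log2(FPKM + 1) values in limma the *ZIP5* difference was -0.01.

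**Figure D4:**
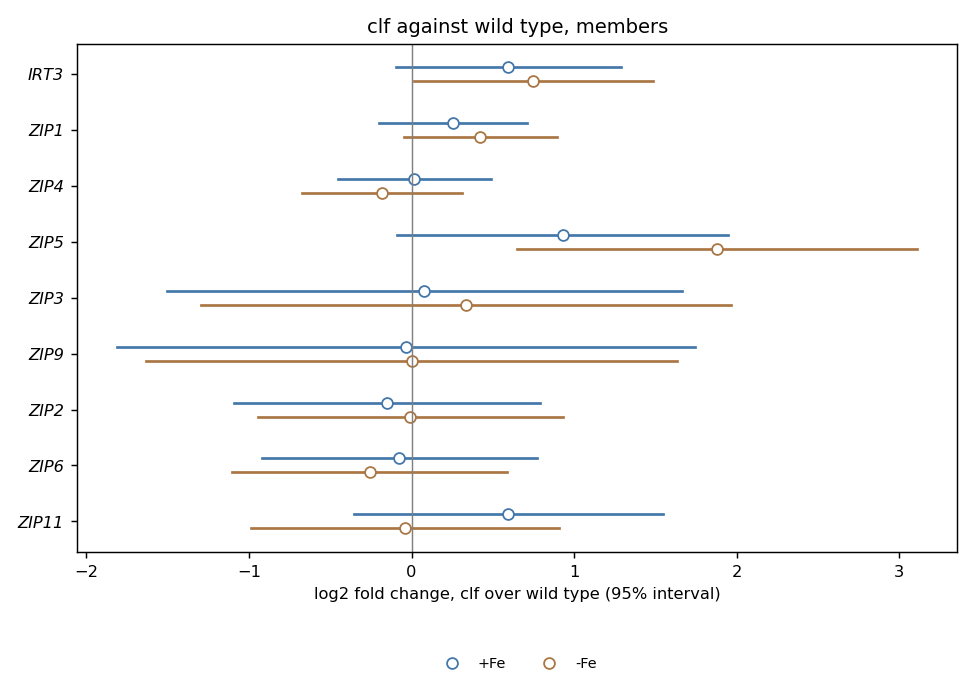
Difference between genotypes for the 9 genes, plotted as log2 of *clf* over wild type (x axis) with its 95% interval, in +Fe roots (blue) and -Fe roots (brown). All points are open because none passed the threshold of 0.05 on the adjusted p; the intervals of *ZIP5* and *IRT3* under iron deficiency, 0.65 to 3.11 and 0.01 to 1.48, lie above 0.

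Other genes of the ZIP family and of zinc balance were taken from lists chosen by function. Of the 7 other ZIP family genes, 5 passed the filter on low counts and 2 rose in each genotype, *IRT2*, an iron transporter relative of *IRT1*, and *ZIP8*. Among all genes 2.28% were called higher in wild type and 1.27% in *clf*. The log2 fold change of *IRT2* was 6.03 in wild type (SE 0.78, adjusted p = 0.00353) and 4.97 in *clf* (SE 0.67, adjusted p = 0.00881), and *ZIP8* rose by 5.14 on the log2 scale in wild type (SE 0.86, adjusted p = 0.011) and by 7.07 in *clf* (SE 1.06, adjusted p = 0.00613). The size of the *ZIP8* rises is uncertain because its +Fe levels were near 0. They were 0.127, 0.887 and 1.01 CPM in wild type and 0.354, 0 and 0.280 CPM in *clf*. Without iron *ZIP8* was at 4.09, 28.0 and 38.3 CPM in wild type and at 23.2, 37.4 and 30.0 CPM in *clf*. *IRT2* was also low in +Fe wild type roots, at 0.127 to 1.10 CPM. *IRT1*, the main iron transporter of the root surface, had a log2 fold change of 3.48 in wild type and 4.49 in *clf* (adjusted p = 0.0898 and 0.071) and rose in the average (3.98, SE 0.66, adjusted p = 0.00671), as did *ZTP29* (0.57, SE 0.14, adjusted p = 0.02). *ZIP7* had 3 reads in all libraries together and *ZIP12* had 1, and neither was tested. No other ZIP family gene was called lower, so the falls within the family were those of *IRT3* and the *ZIP* genes named above.

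Of the 3 F group bZIP factors of the zinc deficiency list, none passed in either genotype alone. *bZIP19* was at 46.3 ± 10.5 CPM in +Fe and 77.6 ± 27.3 CPM in -Fe wild type roots (SD, n = 3), and at 49.9 ± 4.47 and 99.2 ± 16.9 CPM in *clf* (SD, n = 3), and it rose in the average by 0.87 on the log2 scale (SE 0.19, adjusted p = 0.0129). The average log2 fold change of *bZIP23* was -0.42 (SE 0.14, adjusted p = 0.0814) and that of *bZIP24* was -0.45 (SE 0.26, adjusted p = 0.31). The 3 factors thus differed in sign, and *bZIP19* alone of them passed, in the average.

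Among 5 other genes of the zinc deficiency response, *NAS4*, which makes the metal chelator nicotianamine, rose in both genotypes, by 6.22 on the log2 scale in wild type (SE 0.34, adjusted p = 1.29e-05) and by 5.42 in *clf* (SE 0.34, adjusted p = 4.33e-05). *NAS2*, another nicotianamine synthase gene, had log2 fold changes of -0.33 and 0.09 (adjusted p = 0.769 and 0.961). *MTP2*, with 12 reads in all, and *ZIP12*, which is on this list as well, were not tested, and the last of the 5, *HMA2*, is given with the next list, which also holds it. Of 7 genes of vacuolar zinc sequestration and zinc efflux, *ZIF1*, which moves nicotianamine into the vacuole, was called in each genotype, at 2.76 in wild type roots (SE 0.29, adjusted p = 0.000798) and 2.75 in those of *clf* (SE 0.29, adjusted p = 0.00108). In the average 4 of the 7 rose, where 5.81% of all genes were called higher. The 4 were *ZIF1*, *MTP3* (2.96, SE 0.57, adjusted p = 0.0116) and *HMA3* (3.03, SE 0.55, adjusted p = 0.00757), both transporters of the vacuolar membrane, and *HMA2* (0.75, SE 0.20, adjusted p = 0.0305), a zinc pump of the stele. *MTP1*, *HMA4* and *PCR2* did not pass, and none of the 7 was called lower.

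**Figure D5:**
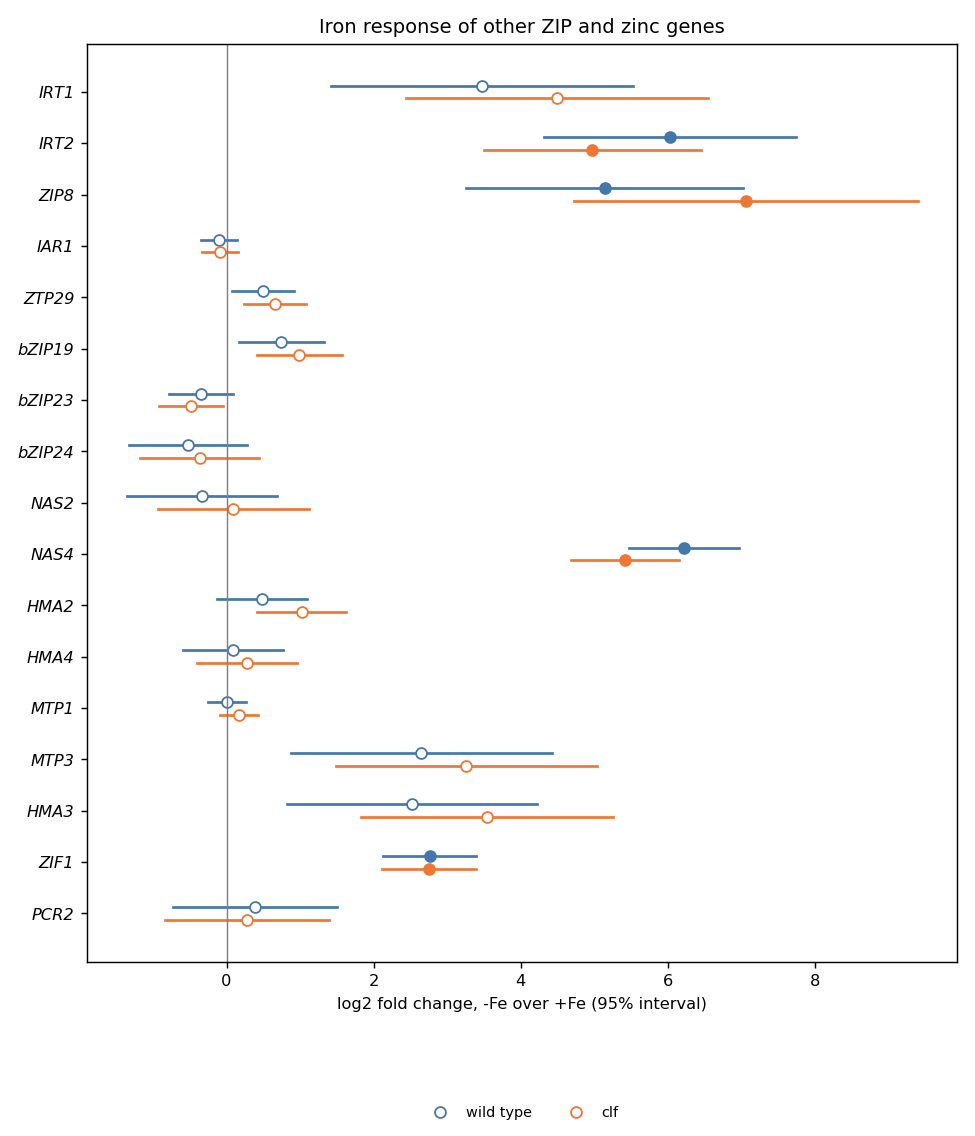
Iron response of the tested genes of the other lists in wild type (blue) and *clf* (orange), as the log2 fold change of -Fe over +Fe (x axis) with its 95% interval; filled points passed the threshold of 0.05 on the adjusted p. *IRT2*, *ZIP8*, *NAS4* and *ZIF1* have filled points right of 0 in both genotypes, and no gene of these lists has a filled point left of 0.

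For each member, the genes most like it over the 12 libraries were sought among 18515 genes whose mean level reached 1 CPM, by the Pearson correlation of log2 CPM. Since the libraries share their iron condition and the differences of the libraries that stand apart, these values are a description. *IRT3* was followed most closely by *HAT22* (r = 0.983), *MHX* (r = 0.977) and *SIGA* (r = 0.975). *ZIP4* was followed by *AT5G08720* (r = 0.986) and by the ferritin genes *FER4* (r = 0.965) and *FER2* (r = 0.964), and *ZIP5* by *MYBL2* (r = 0.986), *NdhS* (r = 0.985) and *AT5G59250* (r = 0.978). For *ZIP1* the closest gene was *ADS1* (r = 0.956), for *ZIP3* it was *CP1* (r = 0.984) and for *ZIP9* it was *AT5G14330* (r = 0.987). The members whose iron response lay within their spread had *AT3G60270* (*ZIP2*, r = 0.963), *AT5G11090* (*ZIP6*, r = 0.933) and *AT2G41312* (*ZIP11*, r = 0.942) as their closest genes. The members themselves were left out of this search.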

How the data were processed

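Root RNA was sequenced in paired-end mode in 12 libraries. The authors aligned the reads to TAIR10 (the submitters' notes name TopHat2) and counted them per gene by HTSeq's union mode, whose strand setting is not stated in the sources used. They deposited raw read counts, and FPKM values that the authors computed from those counts by gene length and library size. For all 25399 genes with reads, FPKM over CPM without TMM factors was constant across libraries within a relative tolerance of 1e-06, and no pair of libraries held identical values.

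Counts of 20168 genes were fitted in a model of the 4 groups with edgeR 4.0.16 (R 4.3.3) after its default filter for low counts, with TMM factors and a robust quasi-likelihood fit on 8 residual degrees of freedom. Of 7 comparisons, 2 are averages over genotypes or iron conditions. SE and 95% intervals come from the same fit, and the CPM values given as levels are TMM-normalized. Adjusted p-values use the Benjamini-Hochberg method over all genes tested, with a threshold of 0.05. The wild type iron test was also run on simulated counts, drawn independently from a common profile with changes only in -Fe wild type libraries. Those counts lacked libraries that stand apart and shared deviations of libraries. The run therefore cannot show how the tests behave on these data, and it placed no change in the other groups. Depth was 18658428 to 28281420 counts per library; the limit given for a count of 0 is 3 counts and covers counting error only. Gene names, positions and sequences are from RefSeq for TAIR10.1, which matched 31912 of 32678 gene IDs and all 10 members. The members, lists and tests were chosen with earlier results of these data known. Genes are named if they are members, belong to a list, or are among the 3 most correlated with a member.

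Same-numbered libraries deviated together from their group means for iron in wild type (correlations 0.616, 0.440 and 0.463) as well as between the genotypes in -Fe roots (0.448, 0.541 and 0.165). The replicate numbers come from the sample titles, which do not state a pairing, and the main model has no block. In each of these groups replicate 1 was the library that stands apart. Whether the correlations come from a pairing or from those libraries was not tested. Alternatives were RLE factors, DESeq2 1.42.0, the table without the filter, the replicate block, limma 3.58.1 on log2(FPKM + 1) or log2(FPKM + 0.1), the 6 libraries compared with or without the block, and each library left out. Added after the data were seen were the 8 libraries without the 4 that stand apart (the least correlated of each group) and those 4 as a term.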

Additional observations from a re-analysis of the deposited data

How the results depend on the processing

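The calls of *IRT3*, *ZIP1*, *ZIP4* and *ZIP5* in wild type, and of *IRT3*, *ZIP1*, *ZIP4*, *ZIP5* and *ZIP9* in the average over genotypes, held under every alternative run. The number of members called higher by iron deficiency in wild type went from 0 to 1 (*ZIP9*) with DESeq2, with the replicate block, with limma on log2(FPKM + 1) or log2(FPKM + 0.1), with the block over the 6 libraries, without the 4 libraries that stand apart and with those as a term, and was 0 to 1 when 1 library was left out (1 without wild type -Fe replicate 1). In *clf* it went from 0 to 1 (*ZIP9*) with DESeq2, the replicate block, limma on log2(FPKM + 1), the 6 libraries, the 8 libraries and the term, and was 0 to 1 when 1 library was left out (1 without wild type +Fe or wild type -Fe replicate 1, which enter only through the shared spread). The number called lower in *clf* was 0 in the fit of 6 libraries with the replicate block, where *IRT3* had a log2 fold change of -2.99 (adjusted p = 0.0935) and 1 gene of 19668 was called lower; same-numbered libraries did not deviate together for iron in *clf* (correlations -0.394, -0.345 and 0.432) or for genotype under iron sufficiency (-0.386, -0.398 and 0.344). Left-out libraries gave 3 to 4 lower calls in *clf* and 4 in wild type. *ZIP3* was called lower in 4 of 23 alternatives in wild type and 3 of 23 in *clf*. For *clf* against wild type, DESeq2 called 1 member higher under iron deficiency (*ZIP5*) and 1 in the average, and the 8 libraries gave 1 higher (*IRT3*) and 1 lower (*ZIP6*) in the average. Apart from *ZIP9*, these calls in *clf* and *ZIP3* in the 6 wild type libraries, the replicate block changed no call.

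Signs turned only for values within their error. For *ZIP2* in wild type the log2 fold change was -0.043 with limma on log2(FPKM + 1), with or without a filter, and -0.044 on log2(FPKM + 0.1), and ranged from -0.29 to 0.42 when 1 library was left out (below 0 when this was +Fe replicate 1 or -Fe replicate 2 or 3 of wild type). With 1 library left out, *ZIP6* in wild type ranged from -0.055 (without +Fe replicate 1) to 0.62, and *ZIP11* in *clf* from -0.63 to 0.076 (without -Fe replicate 1). The *ZIP5* difference between iron responses was -0.0055 with limma on log2(FPKM + 1), filtered or not. The cause of these changes was not tested. With 3 libraries in each group, the 95% intervals on the difference between iron responses reach past 1 on the log2 scale for every tested member but *ZIP1* and *ZIP4*, and the lowest values of *ZIP5* and *ZIP9* rest on 6 and 7 reads.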
